A study of Mus musculus with 9 samples.

Results

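The auxiliary subunits of voltage-gated calcium channels were examined as a group of 8 genes, 4 for beta subunits (Cacnb1, Cacnb2, Cacnb3 and Cacnb4) and 4 for alpha2delta subunits (Cacna2d1, Cacna2d2, Cacna2d3 and Cacna2d4). They were taken by symbol from the 31053 genes measured, and all 8 were found. The set was followed because Cacnb2 and Cacna2d3 had moved in brain endothelial cells (BECs) in these same libraries. The BEC values in both comparisons are therefore a description of what led to the choice and carry no test.

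RNA molecules, counted as unique molecular identifiers (UMIs), had been measured in single nuclei from the pooled cortex and hippocampus of 9 male wild-type C57BL/6 mice, with 1 library per mouse and 3 mice per group. Young AAV-EGFP mice were 5 months old and are called young controls. The other groups were 19 months old, aged AAV-EGFP (aged controls) and aged AAV-B3GNT3. All mice, controls included, had received the adeno-associated virus AAV-PHP.V1 by retro-orbital injection 8 weeks earlier. A short CLDN5 promoter, active in endothelial cells, drove either EGFP, the control protein, or EGFP with B3GNT3, an enzyme that extends the sugar chains of mucin-type glycoproteins. Ageing is aged against young controls, treatment is aged AAV-B3GNT3 against aged AAV-EGFP, and both comparisons share the aged AAV-EGFP libraries. By the study's methods, aged mice came from the National Institute on Aging and young mice from Jackson Laboratories. Ageing therefore cannot be told apart from the source of the mice.

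A voltage-gated calcium channel has a pore subunit that opens on depolarisation and lets calcium in. Beta subunits sit on the cytoplasmic side, bring the pore to the membrane and tune its gating. Alpha2delta subunits are glycosylated, mostly extracellular proteins that raise the number of channels at the surface and at presynaptic terminals, and Cacna2d1 and Cacna2d2 encode the binding sites of the gabapentinoid drugs. In the brain these genes are best known from neurons.

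The libraries held 6331 to 10264 barcodes and 47332047 to 79964605 UMIs each, and 70355 nuclei were kept. Pairs of libraries shared 7 to 37 barcodes. Nuclei were assigned to classes by clustering and fixed markers, which gave 19952 excitatory neurons, 9065 inhibitory neurons, 20327 oligodendrocytes, 8393 astrocytes, 2503 oligodendrocyte precursors, 2168 microglia, 957 pericytes, 759 BECs and 126 choroid plexus epithelial nuclei. Each sample had 49 to 119 BECs, with a median of 1696 to 2423 UMIs per nucleus. The 8 endothelial markers summed to 11296 to 20882 CPM in BECs and to 4 to 7 CPM in excitatory neurons. Pericyte markers in BECs summed to 856 to 1627 CPM and microglial markers to 86 to 233 CPM. B3gnt3 gave 10 UMIs in young control BECs, 0 in aged controls and 7 in aged AAV-B3GNT3, so the mouse gene did not check the labels, and whether transgene transcripts would count under it is not known. CPM are counts scaled to one total: the UMIs of a gene summed over the nuclei of a class in a sample, scaled by all UMIs of that class and sample. Since RNA per nucleus enters the total, a lower CPM cannot be told apart from a larger amount of other RNA. Since transcript lengths differ, levels are compared between cell types for one gene and not between genes.

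The start regions of the genes that led to the choice are shown first. RefSeq held 300-base windows, 250 bases before to 50 after a transcript start in GRCm38.p6, for 7 of the 8 genes. Cacna2d4 was not matched. Capitals mark the letters GGGCGG, the GC box, or CCGCCC, its form on the other strand, and matches can overlap. Cacnb2 has a distal start (chr2:14604056-14604355, plus strand), an internal start (chr2:14823842-14824141, plus strand), and Cacna2d3 has 1 start (chr14:29721815-29722114, minus strand).
Cacnb2, distal start: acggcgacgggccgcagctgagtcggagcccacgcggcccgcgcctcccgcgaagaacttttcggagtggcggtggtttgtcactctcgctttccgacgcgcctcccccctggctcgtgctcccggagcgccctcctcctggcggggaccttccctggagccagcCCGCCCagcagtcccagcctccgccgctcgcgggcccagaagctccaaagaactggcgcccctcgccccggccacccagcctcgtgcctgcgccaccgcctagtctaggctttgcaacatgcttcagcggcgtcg
Cacnb2, internal start: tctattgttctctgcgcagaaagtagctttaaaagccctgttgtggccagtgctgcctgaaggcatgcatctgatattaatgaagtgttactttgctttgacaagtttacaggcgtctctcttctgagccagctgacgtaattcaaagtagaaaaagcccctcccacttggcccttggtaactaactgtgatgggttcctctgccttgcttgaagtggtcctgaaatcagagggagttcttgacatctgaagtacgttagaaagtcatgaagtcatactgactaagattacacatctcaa
Cacna2d3: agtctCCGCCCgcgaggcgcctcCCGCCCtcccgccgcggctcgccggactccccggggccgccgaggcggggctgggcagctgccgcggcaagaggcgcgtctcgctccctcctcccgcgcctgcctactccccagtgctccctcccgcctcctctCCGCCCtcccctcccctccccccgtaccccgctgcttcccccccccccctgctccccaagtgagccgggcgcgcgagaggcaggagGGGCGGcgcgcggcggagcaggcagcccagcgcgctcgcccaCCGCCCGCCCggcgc
The distal Cacnb2 window held 1 GC box and 35 CG dinucleotides, the internal window 0 and 4, and the Cacna2d3 window 6 and 41. Of 32851 promoters in the table, 35.7% held the GC box on either strand and the median number of CG dinucleotides was 7. The letters TATAAA were in none of the member windows on either strand and in 13.6% of all promoters. A match is a description of letters and not a binding site. Which start was used in which cell type was not analysed here.

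Cacnb2, whose protein pairs with L-type and other high-voltage channels, spans 385 kb (chr2:14603088-14987908, plus strand, GRCm38, GENCODE vM21). It was highest in inhibitory neurons, with 1976 ± 578 CPM (SD, n = 9 samples here and for the other class levels). Microglia followed with 971 ± 117 CPM, excitatory neurons with 800 ± 61.8 and pericytes with 671 ± 142. Choroid plexus cells had 271 ± 204 CPM, BECs 216 ± 116, oligodendrocyte precursors 204 ± 42.6, astrocytes 176 ± 37.4 and oligodendrocytes 155 ± 57.7. Excitatory neurons and pericytes, and all neighbours below pericytes in this order, lay within 1 SD of each other. Among non-neuronal cells, microglia and pericytes thus stood above the rest for Cacnb2. Cacnb4, the beta subunit of many presynaptic channels, was at 1091 ± 72.8 CPM in excitatory neurons and 828 ± 33.2 in inhibitory neurons. Oligodendrocytes (373 ± 45.3 CPM) and their precursors (325 ± 49.9) came next, followed by BECs (198 ± 86.4), microglia (193 ± 73.0), pericytes (148 ± 57.3) and astrocytes (110 ± 36.3). Choroid plexus cells had 1234 ± 596 CPM of Cacnb4, from a cluster whose mean doublet score was 0.562 against 0.22 in BECs. Cacnb1, the beta subunit of skeletal muscle that is also found in brain, was at 35.2 ± 6.9 CPM in excitatory neurons, 29.1 ± 6.4 in inhibitory neurons and 21.4 ± 5.1 in astrocytes. Cacnb3 was at 21.1 ± 2.9 CPM in excitatory neurons and 15.5 ± 2.4 in inhibitory neurons, with 0 UMIs in choroid plexus cells. BECs held 12 UMIs of Cacnb1 and 15 of Cacnb3 in all 9 samples together.

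Cacna2d3, which encodes the gabapentinoid-insensitive alpha2delta-3, spans 817 kb (chr14:28904943-29721864, minus strand). Inhibitory neurons had 2230 ± 384 CPM and excitatory neurons 1305 ± 166. Oligodendrocyte precursors had 540 ± 55.3 CPM, choroid plexus cells 418 ± 228, oligodendrocytes 334 ± 104, microglia 244 ± 92.1, pericytes 243 ± 88.1, BECs 203 ± 125 and astrocytes 135 ± 49.7. From choroid plexus cells down, neighbours in this order did not differ beyond their spread. Cacna2d1 was highest in excitatory neurons (932 ± 117 CPM), with inhibitory neurons (485 ± 112) and pericytes (470 ± 97.8) next to each other and within their spread. Its level was 397 ± 54.6 CPM in oligodendrocyte precursors, 294 ± 44.4 in oligodendrocytes, 220 ± 83.5 in microglia, 198 ± 86.0 in BECs, 162 ± 40.8 in astrocytes and 158 ± 81.7 in choroid plexus cells. Cacna2d2 was a gene of inhibitory neurons (120 ± 16.5 CPM) that excitatory neurons held at only 7.1 ± 1.0 CPM. Oligodendrocyte precursors (38.4 ± 7.3 CPM) and astrocytes (32.8 ± 5.2) stood between the neuron classes. Cacna2d4, known from retinal photoreceptors, was highest in oligodendrocytes, with 21.7 ± 4.6 CPM from 935 UMIs, and at 0.3 to 2.5 CPM in the other classes.

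Neuron subtypes divided the members further. They are clusters named by marker genes and stand for neurons like the type named. Cacnb2 was highest in striatal-like neurons led by Drd2 (5294 ± 1548 CPM) and by Drd1 (3144 ± 859), 2 groups whose leading genes mark striatal projection neurons although the labels give cortex and hippocampus. Hippocampal CA3-like neurons had 2223 ± 353 CPM, dentate granule-like neurons 1475 ± 110 and Lamp5 interneurons 1056 ± 197, and the lowest subtypes were Pvalb (257 ± 34.3) and Sst interneurons (254 ± 31.0). Cacna2d3 was also highest in the Drd1-led (4365 ± 435 CPM) and Drd2-led (3823 ± 547) neurons, whose spreads overlapped, and came next in Sst interneurons (2111 ± 258) and CA3-like neurons (1862 ± 447). It was lowest in layer 6 corticothalamic-like neurons (71.8 ± 26.4 CPM) and Pvalb interneurons (178 ± 49.2). Cacna2d1 was highest in Lamp5 interneurons (1779 ± 325 CPM) and upper-layer intratelencephalic-like neurons (1221 ± 200) and lowest in Pvalb (50.6 ± 23.2) and Sst interneurons (45.9 ± 17.9). Cacna2d2 ran the other way among interneurons, with 259 ± 33.7 CPM in Pvalb and 150 ± 17.1 in Sst interneurons. Cacnb4 was highest in Rorb-led mid-layer neurons (1609 ± 127 CPM) and layer 6 corticothalamic-like neurons (1566 ± 86.1), which did not differ beyond their spread, and lowest in CA3-like neurons (270 ± 45.4). These subtypes were clustered from the same nuclei, so the levels carry no test.

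**Figure D1:**
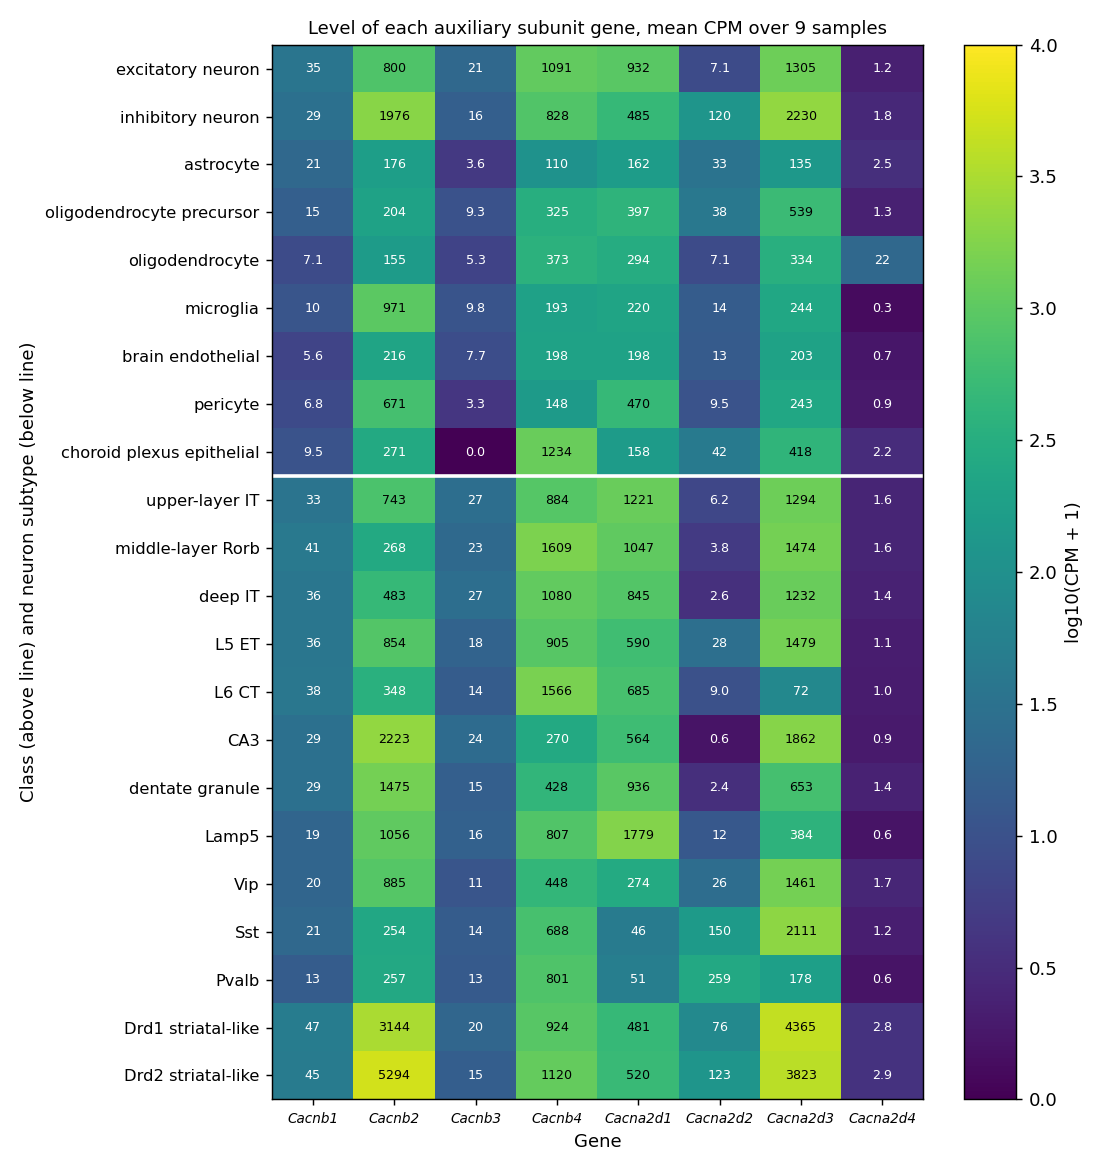
Mean CPM over 9 samples of each of the 8 genes (columns) in each cell class and neuron subtype (rows, above and below the white line), as a printed number and as colour on a log10(CPM + 1) scale. Cacnb2 and Cacna2d3 are highest in the striatal-like neurons, and Cacna2d2 in Pvalb interneurons with 259 ± 33.7 CPM.

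In BECs the 4 members with enough UMIs to fit were lower in aged controls than in young control mice. Cacnb2 was at 321, 308 and 314 CPM in young control mice, at 54.2, 143 and 36.8 in aged control mice and at 309, 287 and 173 in aged AAV-B3GNT3 mice. All 3 aged control samples were below the other 6. These values rest on 242 UMIs in young controls, 36 in aged controls and 167 in aged AAV-B3GNT3 BECs. On the log2 scale Cacnb2 differed by -1.92 ± 0.39 (SE) with ageing and by 1.62 ± 0.39 with treatment. Cacna2d3 was at 328, 271 and 126 CPM in young controls, at 62.0, 52.0 and 89.3 in aged controls and at 396, 228 and 273 in aged AAV-B3GNT3 mice. The aged control samples were again the lowest 3, and the log2 differences were -1.72 ± 0.38 and 1.98 ± 0.38. Cacnb4 went the same way, from 246 ± 17.1 CPM (SD, n = 3) in young controls to 92.3 ± 18.5 in aged controls and 255 ± 63.8 in aged AAV-B3GNT3 mice, with log2 differences of -1.33 ± 0.29 and 1.37 ± 0.29, which were 0.12 ± 0.32 and -0.25 ± 0.33 with no doublets removed. For Cacna2d1 the values were 250, 316 and 267 CPM, then 93.0, 215 and 52.5, then 137, 236 and 215. The ageing groups did not overlap for Cacna2d1, the treatment groups did, and the log2 differences were -1.13 ± 0.39 and 0.61 ± 0.40. Without aged AAV-EGFP replicate 2 they were -1.91 and 1.40 for Cacna2d1 and -2.75 and 2.44 for Cacnb2. The ageing difference of Cacna2d1 was -0.0059 with no doublets removed and -0.29 with no upper limit on genes, and its treatment difference was -0.56 and -0.26. The other 4 members were under the limit on low counts in BECs, with 12, 15, 25 and 1 UMIs in total for Cacnb1, Cacnb3, Cacna2d2 and Cacna2d4.

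**Figure D2:**
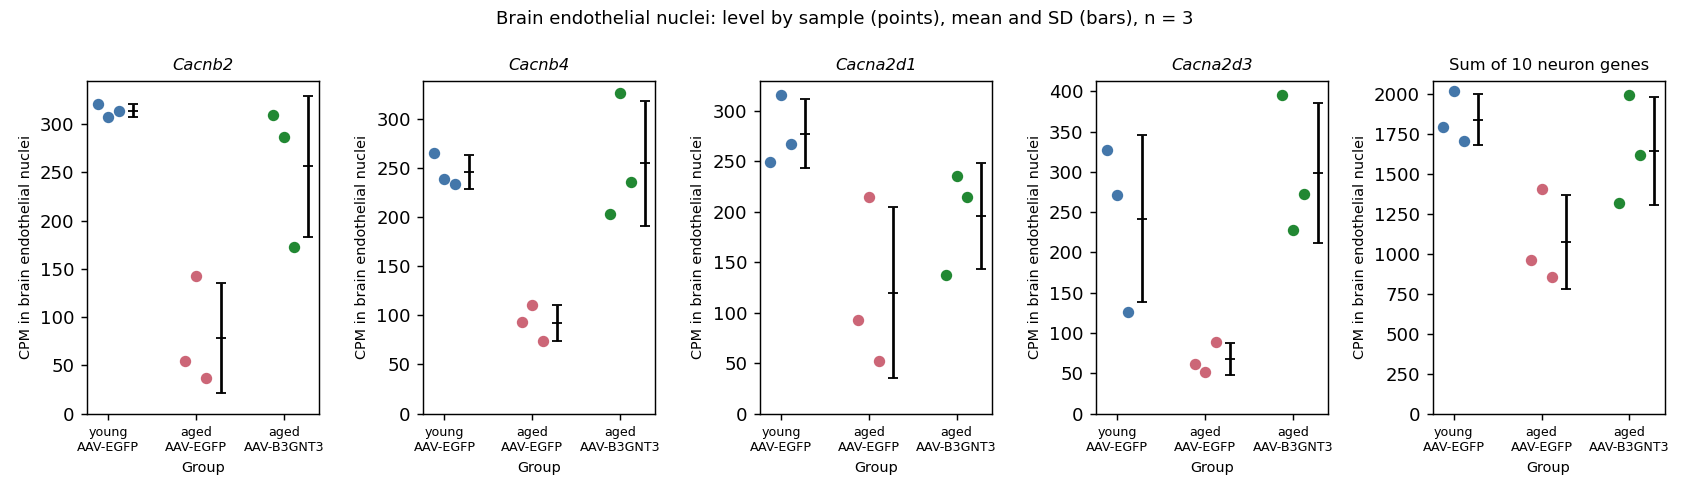
CPM in BECs of the 9 samples (points by group, with bars for the group mean and SD) for Cacnb2, Cacnb4, Cacna2d1, Cacna2d3 and for the summed list of 10 neuron genes. The 3 aged control samples are the lowest for Cacnb2, Cacnb4 and Cacna2d3, and the neuron list was lowest on average in the same group (1074 ± 292 CPM).

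Neuronal RNA in the BEC nuclei moved with these values. A list of 10 neuron genes (among them Rbfox3, Snap25, Syt1, Slc17a7, Camk2a, Nrgn, Sv2b, Gad1 and Gad2), which BECs should lack, summed to 1797, 2020 and 1705 CPM in young control BECs. It summed to 961, 1405 and 856 CPM in aged controls and to 1318, 1996 and 1616 CPM in aged AAV-B3GNT3 BECs. The aged control samples did not overlap young controls, and 1 of them lay above the lowest aged AAV-B3GNT3 sample. Of the 10 genes, 7 could be fitted in BECs, and 6 of the 7 were lower with ageing (among them Rbfox3 by -1.40, Sv2b and Syt1 by -0.95, Camk2a by -0.69 and Snap25 by -0.43 on the log2 scale), while Nrgn was higher by 1.36. The medians over the 7 were -0.95 with ageing and 0.58 with treatment. In microglia the list was at 1789 to 2196 CPM in young controls, 903 to 1829 in aged controls and 1573 to 1848 in aged AAV-B3GNT3 mice. In astrocytes the ranges were 1194 to 1262, 538 to 948 and 826 to 1059 CPM, and in oligodendrocytes 1452 to 1667, 791 to 1274 and 1196 to 1502 CPM. The means in pericytes were 1716, 1157 and 1308 CPM. The means in oligodendrocyte precursors were 1335, 981 and 1024 CPM, with little difference by treatment, and those in choroid plexus cells, 838, 923 and 593 CPM, went the other way in both comparisons. If the whole list in a class were free RNA with the make-up of the sample, free RNA would have been 30.8%, 16.6% and 30.6% of BEC UMIs in young controls, aged controls and aged AAV-B3GNT3 mice on average. Doublet removal entered the values as well. With no doublets removed, the list in aged control BECs was 1511, 3370 and 2694 CPM, the highest of the 3 groups on average, and the log2 differences of Cacna2d3 were -0.031 with ageing and 0.0030 with treatment. Those of Cacnb2 were -0.64 and 0.072.

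Within a sample, 1 source of free RNA would keep its genes in a fixed ratio. The members were therefore set against their level in the neurons of the same sample. Neurons here are excitatory and inhibitory neurons pooled, where the plan named excitatory neurons alone. Cacnb2 and Cacna2d3 were higher in inhibitory neurons, so against excitatory neurons alone their ratios would be higher. The counts of samples above the list depend on this choice. The neuron list in BECs was at 20.4 ± 6.1% of its level in neurons (SD, n = 9), with single genes from 10.6% (Rbfox3) to 75.0% (Nrgn). The genes of the list thus did not keep 1 ratio, and their sum is a coarse reference for any member. Cacnb2 in BECs was at 20.4 ± 12% of the neuron level, Cacnb4 at 19.4 ± 8.6%, Cacna2d1 at 24.4 ± 10.5% and Cacna2d3 at 13.1 ± 7.6%. The ratio was above that of the neuron list in 4 of 9 samples for Cacnb2, 5 for Cacnb4, 7 for Cacna2d1 and 1 for Cacna2d3. By group, Cacnb2 was at 32.2 ± 4.0%, 6.3 ± 4.2% and 22.6 ± 5.0% in young controls, aged controls and aged AAV-B3GNT3 BECs, where the list was at 24.3 ± 2.3%, 13.6 ± 3.3% and 23.2 ± 5.3%. Cacna2d3 was at 16.3 ± 5.7%, 4.1 ± 0.9% and 18.8 ± 3.4%. Cacnb2 and Cacna2d3 led to the choice of the set because they moved in these BECs, so their range by group beside the list is a description only. After an estimate of free RNA was subtracted, 15.6% of the Cacnb2 UMIs in BECs were left, 15.6% of Cacna2d1, 3.0% of Cacna2d3 and 1.6% of Cacnb4. The estimate was set from the same neuron list and also removes RNA that a class makes itself. What it leaves, here and in other classes, is therefore no second check beside the ratio. Cacnb2 was at 93.8, 2.5 and 105 CPM in young controls, at 0 in the 3 aged control samples, and at 88.1, 0 and 0 CPM in aged AAV-B3GNT3 BECs, so 5 of 9 samples were at 0. Cacna2d3 was at 0 in 8 of 9 samples. Pericyte markers summed to 856 to 1627 CPM in BECs and to 6995 to 8362 CPM in pericytes. The part of pericyte RNA in what was left was not tested.

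The share of BEC nuclei with a UMI was also lowest in the aged controls. When each nucleus was thinned to 1000 UMIs, which left 705 of 759 BECs, 16.7% had Cacnb2, 17.2% Cacnb4, 17.3% Cacna2d1 and 18.6% Cacna2d3. By group Cacnb2 was found in 20.6% (95% Wilson interval 16.3 to 25.8), 7.7% (4.7 to 12.6) and 18.9% (14.5 to 24.3) of young controls, aged controls and aged AAV-B3GNT3 BECs. Unthinned, the shares were 36.8%, 13.9% and 33.5%, at median depths of 2112, 1749 and 1956 UMIs. The intervals cover counting error only and not the spread between mice. Cacna2d3 was in 20.6%, 8.8% and 23.5% of BECs and, at the same depth, in 26.2%, 12.6% and 22.2% of microglia. At that depth 20.3%, 16.7% and 17.6% of microglia had Cacna2d3, Cacnb4 and Cacna2d1, and 16.7% of 8345 astrocytes (median of 2976 UMIs before thinning) had Cacnb2. For Cacnb2 astrocytes and not microglia are given here, and a larger share of microglia held it, as stated below. No likeness between classes is read from these shares. The part of free neuronal RNA in the BEC differences was not tested beyond these values.

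**Figure D3:**
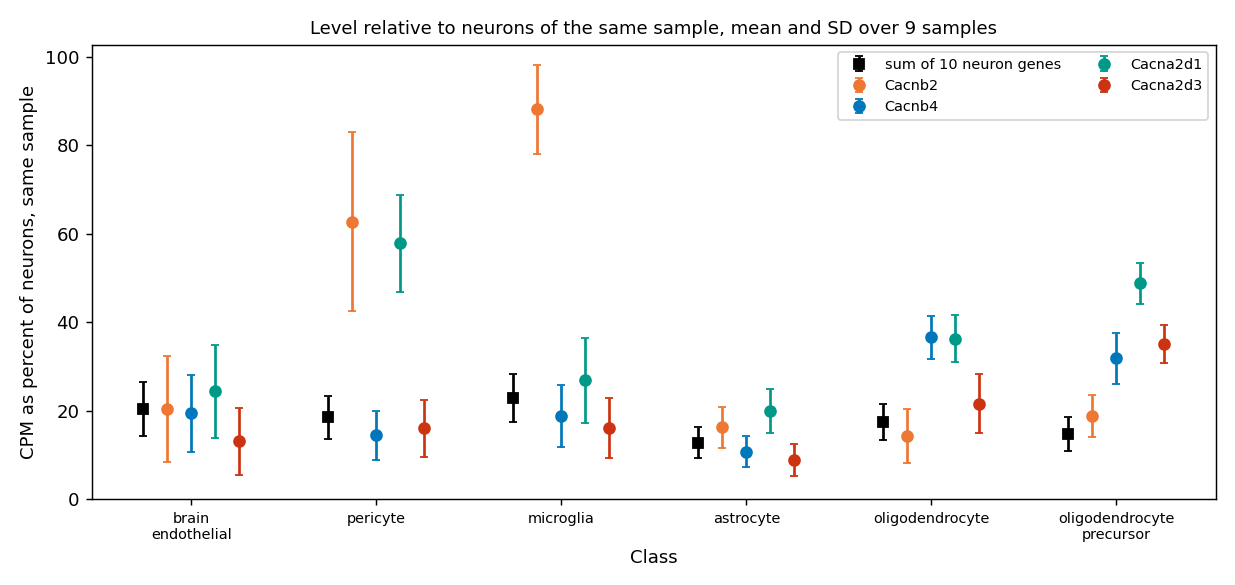
Level of Cacnb2, Cacnb4, Cacna2d1, Cacna2d3 and the neuron list in 6 non-neuronal classes as a percent of the level in neurons of the same sample. Excitatory and inhibitory neurons are pooled, and points show the mean and bars the SD over 9 samples. In BECs Cacnb2, Cacnb4 and Cacna2d1 lie around the neuron list (20.4 ± 6.1%), and Cacna2d3 lies below it in most samples. Cacnb2 in microglia (88.1 ± 10.0%) and Cacna2d1 in pericytes (57.8 ± 10.9%) lie above the list of their class in 9 of 9 samples.

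Other non-neuronal classes held members above the summed neuron list, a coarse reference because its single genes ranged widely in BECs. In microglia Cacnb2 was at 88.1 ± 10.0% of the neuron level, where the list was at 22.9 ± 5.4%, and 54.0% of 1956 thinned microglia had a UMI of Cacnb2 against 16.7% of BECs. Subtraction of free RNA left 73.4% of microglial Cacnb2, but 0.2% of Cacnb4, 14.5% of Cacna2d1 and 0.8% of Cacna2d3. In pericytes Cacnb2 was at 62.7 ± 20.2% and Cacna2d1 at 57.8 ± 10.9%, against 18.6 ± 4.9% for the list, with 67.9% and 65.2% left after subtraction. Oligodendrocyte precursors held Cacna2d2 at 107 ± 20.7%, Cacna2d1 at 48.8 ± 4.7% and Cacna2d3 at 35.1 ± 4.3% of the neuron level, where the list was at 14.8 ± 3.8%. Subtraction left 50.5% of Cacnb4 in precursors. In oligodendrocytes Cacnb4 (36.6 ± 4.8%) and Cacna2d1 (36.3 ± 5.3%) were above the list (17.5 ± 4.0%), and 96.1% of Cacna2d4 was left after subtraction. Astrocytes held Cacna2d2 (91.8 ± 16.2%) and Cacnb1 (65.5 ± 20.6%) above the list (12.8 ± 3.4%), and subtraction left 0% of their Cacnb4 and Cacna2d3. Excitatory neurons, low in Cacna2d2, make up most of the pooled neurons. In every sample Cacna2d2 was lower in precursors and astrocytes than in inhibitory neurons.

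The comparisons were tested in 6 classes on counts summed per sample, with edgeR's quasi-likelihood test and Benjamini-Hochberg adjusted p over all genes tested in a class, and a gene with an adjusted p under 0.05 is said to pass or to be called. These are the same libraries as the BEC values, so they are not independent of them. In excitatory neurons 1 of 8 members passed with ageing, against 14.2% of all genes tested, and 0 of 8 with treatment, against 2.51% of all genes. With treatment 2 members had an unadjusted p under 0.05, Cacnb1 and Cacna2d1 (-0.42 ± 0.14, edgeR adjusted p = 0.106). DESeq2 called 1, Cacnb1 (DESeq2 adjusted p = 0.0443). Here and below, counts of members by unadjusted p, by DESeq2 or in other settings lack a share of all genes. They are therefore no result about the members. The medians over the 8 were -0.022 and -0.0063 on the log2 scale, against 0.022 and 0.014 over all genes. Cacnb1 was at 41.9, 35.1 and 36.6 CPM in young controls, 28.1, 22.0 and 33.4 in aged controls and 42.3, 42.4 and 35.4 in aged AAV-B3GNT3 neurons. All 3 aged control samples were the lowest. Cacnb1 fell with ageing (log2 difference -0.49 ± 0.12, edgeR adjusted p = 0.0198), and its treatment difference of 0.41 ± 0.12 did not pass (adjusted p = 0.0779). The ageing call was lost without young AAV-EGFP replicate 1 (adjusted p = 0.0609), without young AAV-EGFP replicate 3 (0.0665) or without aged AAV-EGFP replicate 2 (0.0808), and the treatment difference passed without aged AAV-B3GNT3 replicate 3 (0.0361). For Cacnb2, Cacnb4, Cacna2d1 and Cacna2d3 the ageing differences in excitatory neurons were within 0.05 of 0, with a 95% interval of -0.29 to 0.28 for Cacna2d3.

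In inhibitory neurons 0 of 8 members passed in either comparison, where 3.51% and 0.235% of all genes did. By the unadjusted p under 0.05, 2 members passed with ageing and 1 with treatment, and DESeq2 called 0 in both. With ageing these were Cacnb2 and Cacna2d4 (0.90 ± 0.35, edgeR adjusted p = 0.144). With treatment it was Cacna2d1 (-0.39 ± 0.17, edgeR adjusted p = 0.25). The share of all genes at the unadjusted threshold is not given, so nothing is read from these counts. The medians over the members were 0.099 and -0.084. Cacnb2 differed by 0.62 ± 0.25 with ageing (edgeR adjusted p = 0.155). The share of striatal-like nuclei among inhibitory neurons ran from 24.9 to 53.1% over the samples. Without the Drd2-led and single-library clusters the Cacnb2 difference was -0.11. Without aged AAV-EGFP replicate 1 the adjusted p was 0.0462. In oligodendrocyte precursors 0 of 7 members passed in either comparison, where 2.95% and 0.676% of all genes did. There 0 members with ageing and 1 with treatment, Cacnb1 (0.82 ± 0.34, edgeR adjusted p = 0.30), had an unadjusted p under 0.05. DESeq2 called 0 in both, and the medians were -0.16 and 0.15. Cacnb2 passed with ageing without aged AAV-EGFP replicate 1 (edgeR adjusted p = 0.0346).

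Astrocytes had 4 of 7 tested members called with ageing, all lower, against 12.1% of all genes, and their median was -0.78 against 0.00011 over all genes. Cacna2d3 was at 209, 172 and 153 CPM in young controls, 64.9, 84.8 and 79.2 in aged controls and 142, 179 and 130 in aged AAV-B3GNT3 astrocytes, so the aged control samples were the lowest 3. It fell by 1.24 on the log2 scale (SE 0.17, edgeR adjusted p = 0.000382). Cacnb4 was at 160, 137 and 128 CPM, then 57.8, 69.3 and 69.7, then 106, 140 and 120, and also fell with ageing (-1.13 ± 0.15, edgeR adjusted p = 0.000382). Cacnb2 (-0.63 ± 0.15, edgeR adjusted p = 0.0127) and Cacna2d1 (-0.78 ± 0.17, adjusted p = 0.00918) fell by less. With treatment 2 of 7 passed, against 4.95% of all genes, with a median of 0.26, and these were Cacnb4 (0.77 ± 0.15, edgeR adjusted p = 0.0133) and Cacna2d3 (0.85 ± 0.17, adjusted p = 0.0127). The neuron list moved beside them, with 5 of its 10 genes called lower and 1, Nrgn, called higher with ageing, and a median of -0.73. With treatment 8 of the 10 had higher values, Nrgn was called lower, and the median was 0.28. No member was called in either comparison when no doublets were removed, where the ageing differences were smaller (Cacnb2 -0.087, Cacnb4 -0.22, Cacna2d1 -0.17 and Cacna2d3 -0.18). The treatment differences of Cacnb4 (-0.25) and Cacna2d3 (-0.40) were reversed in that setting. None was called when free RNA was subtracted either. There the ageing differences of Cacnb2 (-0.82 ± 0.80, edgeR adjusted p = 0.61) and Cacna2d1 (-0.73 ± 0.38, adjusted p = 0.32) had wider errors. Cacnb2 was left at 44.6, 42.6 and 32.0 CPM in young controls and 40.7, 0 and 39.1 in aged controls, so its difference rests on aged AAV-EGFP replicate 2. Cacna2d1 was left at 47.7, 65.8 and 59.9 against 67.4, 17.4 and 35.4 CPM, so only replicates 2 and 3 were lower. Cacnb4 and Cacna2d3 were at 0 in 9 of 9 samples and could not be tested. Cacnb2 was lost without young AAV-EGFP replicate 2 (adjusted p = 0.0567) and, with Cacna2d1, without aged AAV-EGFP replicate 3 (0.0639 and 0.0516). Without aged AAV-B3GNT3 replicate 2 both treatment calls were lost (adjusted p = 0.084 for Cacnb4 and 0.0794 for Cacna2d3).

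Microglia had 3 of 4 tested members called with ageing, all lower, against 12.4% of all genes, and their median was -1.23 against 0.0055 over all genes. Cacna2d3 was at 366, 348 and 318 CPM in young controls, 145, 222 and 89.4 in aged controls and 228, 272 and 206 in aged AAV-B3GNT3 microglia, so the ageing groups did not overlap and the treatment groups did. It fell by 1.23 (SE 0.24, edgeR adjusted p = 0.00126), Cacnb4 by 1.33 (SE 0.20, adjusted p = 0.000141) and Cacna2d1 by 1.22 (SE 0.25, adjusted p = 0.00273), all on the log2 scale. Cacnb2, the member that microglia held above the summed neuron list, was at 857, 957 and 936 CPM, then 929, 1267 and 948, then 941, 999 and 908. Its ageing difference of 0.15 ± 0.16 did not pass (edgeR adjusted p = 0.61). With treatment 1 of 4 passed, against 3.8% of all genes, with a median of 0.69, which was Cacnb4 (0.75 ± 0.20, edgeR adjusted p = 0.0325). DESeq2 called 0 with treatment. The Cacnb4 call was lost without aged AAV-EGFP replicate 3 (adjusted p = 0.206), aged AAV-B3GNT3 replicate 2 (0.222) or replicate 3 (0.0525), and with no upper limit on genes (0.146) or only the 6 samples compared (0.0506). Cacna2d1 passed with treatment without aged AAV-EGFP replicate 1 (edgeR adjusted p = 0.00639) or aged AAV-B3GNT3 replicate 1 (0.0401), and Cacna2d3 without aged AAV-EGFP replicate 2 (0.0123). In these nuclei 4 of the 10 neuron genes were called lower and 1, Nrgn, higher with ageing, with a median of -0.75. With treatment 8 of the 10 had higher values, Nrgn was called lower, and the median was 0.38. With no doublets removed no member was called in microglia, and the ageing differences were -0.15 for Cacnb4, -0.27 for Cacna2d1 and 0.23 for Cacna2d3. The treatment difference of Cacnb4 was reversed in that setting (-0.35). With free RNA subtracted none was called either. Cacna2d1 then differed by -3.19 ± 1.29 with ageing (edgeR adjusted p = 0.29), from 18.6, 53.6 and 79.7 CPM left in young controls and 19.5, 0 and 0 in aged controls, and Cacnb4 and Cacna2d3 were each at 0 in 8 of 9 samples.

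In oligodendrocytes 1 of 8 members passed with ageing, against 21.6% of all genes, and 2 of 8 with treatment, against 10.1%. The medians over the 8 were -0.14 and 0.12, against 0.022 and 0.0046 over all genes. Cacnb2 was at 209, 208 and 168 CPM in young controls, 87.3, 111 and 73.4 in aged controls and 149, 242 and 145 in aged AAV-B3GNT3 oligodendrocytes, with the aged control samples the lowest 3. It fell with ageing (-1.10 ± 0.21, edgeR adjusted p = 0.0040) and was higher with treatment (0.87 ± 0.21, adjusted p = 0.0224), and no Cacnb2 was left there after free RNA was subtracted. Cacna2d3 was at 285, 238 and 229 CPM, then 247, 298 and 308, then 464, 501 and 436. The aged AAV-B3GNT3 samples were the highest 3. Cacna2d3 rose with treatment (0.61 ± 0.13, edgeR adjusted p = 0.0123). After subtraction it was at 0 CPM in young controls, 73.9 in aged controls and 173 in aged AAV-B3GNT3 on average, and the treatment call was lost, with a larger difference and a wider error (1.35 ± 0.42, edgeR adjusted p = 0.153). Without aged AAV-B3GNT3 replicate 2 neither treatment call held (adjusted p = 0.0738 for Cacnb2 and 0.0502 for Cacna2d3), and the Cacnb2 call was also lost without aged AAV-EGFP replicate 3 (0.0715). Cacna2d1 passed with ageing without aged AAV-EGFP replicate 1 (edgeR adjusted p = 0.0294). The neuron list in oligodendrocytes had 5 of 10 genes called lower and 1, Nrgn, higher with ageing, with a median of -0.77. With treatment 8 of the 10 had higher values, Camk2a was called higher, Nrgn was called lower, and the median was 0.29. Cacna2d4, a member at its highest in this class, was at 24.5 ± 5.3 CPM (SD, n = 3), then 22.3 ± 3.9, then 18.3 ± 3.1, and the groups overlapped in both comparisons.

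**Figure D4:**
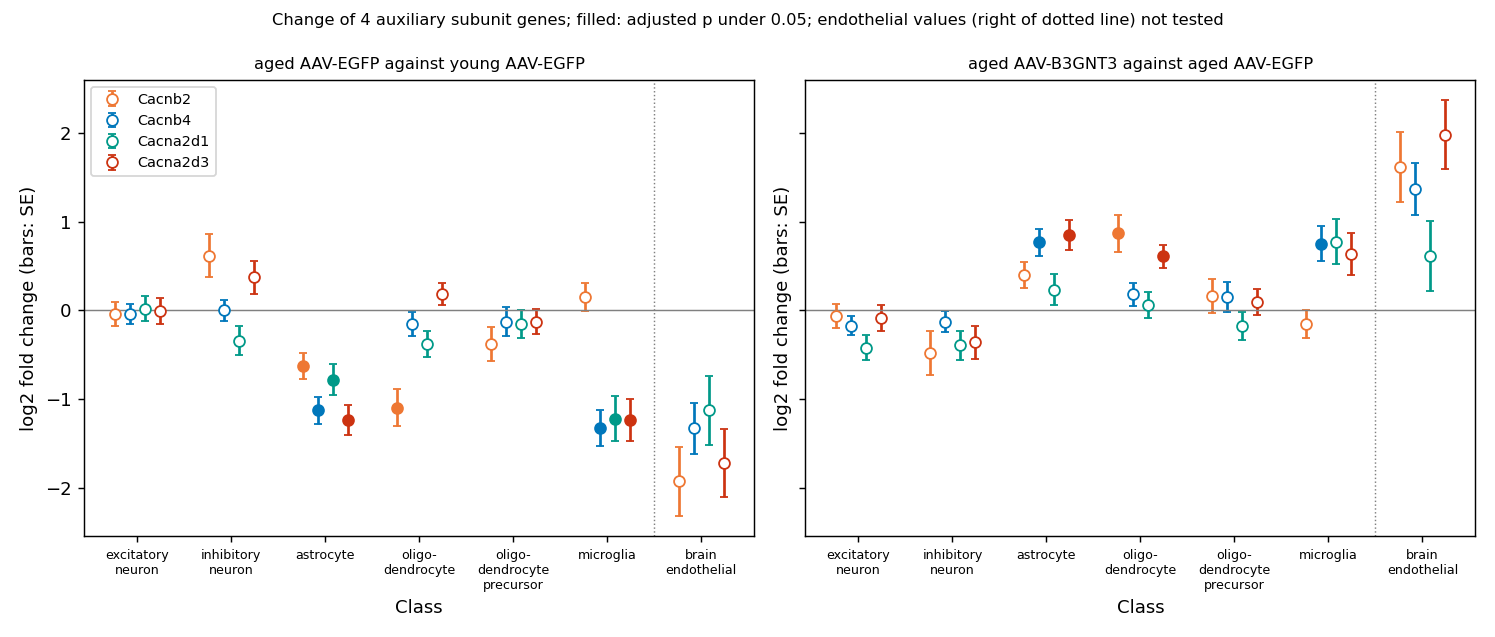
Log2 difference of Cacnb2, Cacnb4, Cacna2d1 and Cacna2d3 by class, with ageing (aged against young controls) and with treatment (aged AAV-B3GNT3 against aged controls), with bars of 1 SE and filled points for an adjusted p under 0.05. BEC points are values with no test. With ageing the 4 genes lie below 0 in astrocytes, in BECs and, except Cacnb2 (0.15 ± 0.16), in microglia, and they lie within 0.05 of 0 in excitatory neurons.

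Whether the changes differed between classes was tested by limma on the per-sample differences between log2 CPM of the classes. The ageing change of Cacnb2 differed between excitatory neurons and oligodendrocytes by 1.07 ± 0.23 (limma adjusted p = 0.0266), and 8.75% of all genes passed this test. With treatment, where 2.46% passed, Cacnb2 (-0.91 ± 0.23, limma adjusted p = 0.077) and Cacna2d3 (-0.70 ± 0.16, adjusted p = 0.0543) did not. Between excitatory and inhibitory neurons 0 of 8 members and 0% of 14713 genes passed with limma in either comparison, and 1402 of the genes had an unadjusted p under 0.05 with ageing and 740 with treatment. Other pairs of classes were not tested.

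The list of 26 other genes held pore subunits, gamma subunits and related proteins, RGK GTPases that bind beta subunits and thrombospondins that bind alpha2delta-1. Those that passed were all lower with ageing and all higher with treatment. With ageing 8 of 16 tested genes were lower in astrocytes, 8 of 16 in oligodendrocytes, 4 of 6 in microglia and 2 of 13 in oligodendrocyte precursors, where 12.1%, 21.6%, 12.4% and 2.95% of all genes passed in either direction. Of the 10 neuron genes 9, 9, 9 and 8 had lower values in the same nuclei, with medians of -0.73, -0.77, -0.75 and -0.40 in that order of classes. The part of free neuronal RNA in these counts was not tested. Thbs4 was the thrombospondin among them, in astrocytes (-1.12 ± 0.29, edgeR adjusted p = 0.0253). In oligodendrocytes these were the pore genes Cacna1b (-1.13), Cacna1c (-0.59), Cacna1d (-1.06), Cacna1e (-1.26) and Cacna1i (-1.24), and Cacng2 (-1.11), Cacng3 (-1.05) and Cacng8 (-1.58) on the log2 scale. The Cacng genes named here encode TARPs, proteins that accompany AMPA receptors. With treatment 5 of 16 were higher in oligodendrocytes (Cacna1b 0.95, Cacna1c 0.54, Cacna1d 0.90, Cacna1e 0.97 and Cacng8 1.05), 2 of 16 in astrocytes and 2 of 6 in microglia, where 10.1%, 4.95% and 3.8% of all genes passed. In excitatory neurons 3 of 22 were lower with ageing, a share near the 14.2% of all genes, namely Cacng2 (-0.86 ± 0.14, edgeR adjusted p = 0.00479), Cacng8 (-0.78 ± 0.15, adjusted p = 0.00951) and the T-type pore gene Cacna1i (-0.53 ± 0.15, adjusted p = 0.0333). In inhibitory neurons 1 of 18 passed with ageing, Cacng8, where 3.51% of all genes did. With treatment edgeR called 0 of 22 in excitatory neurons, 0 of 18 in inhibitory neurons and 0 of 13 in oligodendrocyte precursors. In these classes 2.51%, 0.235% and 0.676% of all genes passed. An unadjusted p under 0.05 was found for 5, 2 and 1, counts given without a share of all genes. The medians of all genes tested were within 0.03 of 0 in each class.

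The genes whose levels over the 22 classes and subtypes were most like each member were ranked among 11340 genes by Pearson's r of log2 CPM. The types share libraries and clustering, so r is a description. Cacna2d3 was most like Lrtm1 (r = 0.98) and Gm48003 (0.96), which lie inside Cacna2d3 on the opposite strand. Cacnb2 was most like Gm13269 (0.96) and Gm10848 (0.94), antisense genes that touch its exons. Whether counting used strand is not stated, so reads of these pairs may not be told apart. Cacna2d1 was most like Gm3510 (0.90), at chr5:15923755-15933406 just before its start, and Mlip (0.79). Cacnb1 was most like Radil (0.93), Cacnb3 like Frrs1l (0.94) and Cadm3 (0.93), and Cacnb4 like Gm3294 and Ccdc92 (0.87 each). Cacna2d2 was most like Abat (0.81), the enzyme that degrades GABA, and Kctd8 (0.80), and Cacna2d4 like Carns1 (0.84) and Abca2 (0.80), a lipid transporter of oligodendrocytes.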

How the data were processed

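Nuclei of 9 mice were sequenced with the 10x Genomics 3′ kit. The deposited matrices hold raw UMI counts by gene and nucleus, and the authors made them with Cell Ranger on mm10. The submitters' processing notes name Cell Ranger 4.0.0 and the matrix headers 7.2.0, and whether intronic reads or strand were used is not given in the sources used here. Free RNA and doublets had not been removed from these counts, whereas the study's own methods used SoupX and DoubletFinder.

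The limits were 200 to 5000 genes and up to 10% mitochondrial UMIs (74895 of 77823 barcodes passed). The upper limit removed 2923. Doublets were taken by the share of simulated doublets among nearest neighbours, at a preset 0.8% per 1000 barcodes, which removed 4540 and is not a measured rate. Counts were clustered (2000 variable genes, 15 components, 20 neighbours, Leiden resolution 0.3). Clusters were named when at least 3 fixed markers passed at 2 times the median cluster. The exception for markers of one lineage, the subcortical list, the minimum of 20 nuclei and the re-clustering of neurons for subtypes were set after clusters were seen. Of the nuclei kept, 6105 stayed unnamed. The cluster called choroid plexus and the 929-nucleus inhibitory cluster, 54.8% from young AAV-EGFP replicate 1, stand apart.

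For each class the counts of a sample's nuclei were summed and tested two-sided with edgeR 4.0.16 (filterByExpr, TMM, quasi-likelihood, 9 samples per fit, adjusted p under 0.05). In BECs the planned permutation test could not go below p = 0.1 for 3 against 3 and is not given, because that contrast chose the members. Differences between classes used limma 3.58.1 (prior count 2). Free RNA was estimated so that it accounts for all UMIs of the 10 neuron genes in a class, with the profile of all nuclei of the sample, so it also takes RNA that a class makes itself. The steps were tested on simulated data. DESeq2 1.42.0, RLE size factors, other filters, clusterings and samples were tried as alternatives. A difference smaller than its SE was given no direction when alternatives were compared. Shares of nuclei have 95% Wilson intervals. Young and aged mice came from different suppliers, so the ageing p-values cannot separate age from source. Nothing states litters or batches, so p-values measure the spread between these mice.

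All 8 members are named in every class, with the 2 genes most like each (some genes are not reported here) and the other calcium channel genes that passed in excitatory neurons or oligodendrocytes. Members, lists and comparisons were chosen with earlier results of these data known.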

Additional observations from a re-analysis of the deposited data

Results flagged for a closer look

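The ageing change of Cacnb2 differed between excitatory neurons and oligodendrocytes by 1.07 on the log2 scale (limma adjusted p = 0.0266). Cacnb2 was the only member that passed this test of the difference, which 8.75% of all genes passed. Cacnb2 was lower with ageing in oligodendrocytes in 3 of 3 aged AAV-EGFP samples and overlapped between the groups in excitatory neurons. After an estimate of free RNA was subtracted, no Cacnb2 UMI was left in oligodendrocytes. The estimate takes all UMIs of the neuron list as free RNA and also removes RNA that a class makes itself. The 0 therefore cannot tell the source of this Cacnb2. The part of free RNA in this difference was not tested further.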

How the results depend on the processing

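Up to 20 other settings were run per result. Counts of members called in these settings are given without the share of all genes in the same setting. Free RNA subtraction gave 35 gene results, the 6 samples compared 82 and the inhibitory neuron setting 14, where most gave 84, and the setting of nuclei with no neuron-list UMI was for BECs alone. RLE size factors, clustering at a resolution of 1.0 and the replicate number as a block each left all 84 gene results on the same side of the threshold. No difference at least as large as its SE changed direction in these settings. The numbers did not pair the samples (2 to 4 of 9 same-number pairs per class correlated over 0.1), and with the replicate block the members called were 1 with ageing and 0 with treatment in excitatory neurons, 4 and 2 in astrocytes, 1 and 2 in oligodendrocytes, 3 and 1 in microglia and 0 in the other classes. In microglia the 1 member called with treatment became 0 under DESeq2, with only the 6 samples compared and with no upper limit on genes, and 3 with no filter on low counts. In excitatory neurons DESeq2 called 1 with treatment. The members called in astrocytes and microglia went to 0 in both comparisons with no doublets removed and with free RNA subtracted. After subtraction, astrocyte Cacnb2 (-0.82, SE 0.80) and Cacna2d1 (-0.73, SE 0.38) and microglial Cacna2d1 (-3.19, SE 1.29) kept their ageing direction with wider errors. The other called members of these classes were at 0 in a group compared and had no value there. In oligodendrocytes treatment calls went to 0 with free RNA subtracted, and Cacnb2, the member called with ageing, had no UMI left. Without doublet removal the following treatment differences reversed: Cacnb2 -0.35, Cacnb4 -0.25, Cacna2d1 -0.40 and Cacna2d3 -0.40 in astrocytes, and Cacnb4 -0.35, Cacna2d1 -0.44 and Cacna2d3 -0.33 in microglia, where Cacna2d3 with ageing was 0.23. With free RNA subtracted, oligodendrocyte Cacnb1 was 1.37 (SE 1.77) with ageing and -0.81 (SE 1.59) with treatment, and Cacnb4 0.12 (SE 0.156) with ageing, opposite in sign to before but smaller than their SEs, so with no direction. Cacnb2 in inhibitory neurons was -0.11 with ageing without the Drd2-led and single-library clusters, a setting added after the data were seen. Why these settings moved the values was not tested.

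In BECs without doublet removal, Cacnb2 was -0.64 with ageing and 0.072 with treatment, Cacna2d3 -0.031 and 0.0030, Cacnb4 0.12 and -0.25, and Cacna2d1 -0.0059 and -0.56, while the neuron list differed by 427 and -662 CPM. With no upper limit on genes Cacnb2 was -0.98 and 0.63 and Cacna2d1 -0.29 and -0.26. In nuclei with no neuron-list UMI Cacnb2 was -0.87 with ageing, smaller than its SE of 1.44 and from 2, 7 and 4 young and 3, 7 and 18 aged control nuclei. Cacnb4 was -0.83 (SE 1.32) with ageing in these nuclei. Values of Cacna2d3 and of treatment in this setting are not given here. When each sample was left out in turn, BEC Cacnb2 ran from -2.75 to -1.54 with ageing and 1.23 to 2.44 with treatment. The members called ran from 0 to 1 in both comparisons in excitatory neurons, 0 to 1 with ageing in inhibitory neurons and precursors, 2 to 4 and 0 to 2 in astrocytes, 1 to 2 and 0 to 2 in oligodendrocytes, and 3 to 3 and 0 to 2 in microglia. The few UMIs of BECs limit what these data can show there.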
